A study of Mus musculus with 8 samples.

Results

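The genes described here are 8 genes of basophil and mast cell fate, Cpa3, Mcpt8, Gzmb, Hdc, Fcer1a, Ms4a2, Fcer1g and Mitf, chosen by symbol from the 20207 genes with a value in each library, and all 8 passed the filter on low values that 12561 genes passed. RNA sequencing had been carried out on bone marrow cells sorted from healthy mice and from mice with a chronic myeloid leukaemia (CML)-like disease, in 8 libraries. The populations were long-term (LT) stem cells, short-term (ST) stem cells and KLS- progenitors, and values were in RPKM, reads scaled to transcript length and library depth. LT-HSC and LT-CML had 2 libraries each, and ST-HSC, ST-CML, normal KLS- and CML-KLS- had 1 each.

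LT cells were sorted as CD150+CD48-CD135-KLS+, ST cells as CD150-CD48-CD135-KLS+ and KLS- progenitors as cKit+ cells without Sca-1 or the lineage markers CD4, CD8, B220, TER119, Gr-1 and Mac1. That lineage panel held no antibody to the IgE receptor. In the study's methods, the diseased animals carried both the Tal1-tTA and the TRE-BCR-ABL1 transgene on an FVB/N background, so that the Tal1 promoter drove the transactivator and withdrawal of doxycycline (DOX) turned on BCR-ABL1, and the healthy controls were littermates carrying Tal1-tTA alone, male and female. The labels instead name C57BL/6 for all libraries. They give 2 months as the age of the healthy LT-HSC 1, ST-HSC and KLS- libraries, 6 months for LT-HSC 2 and no age for CML. The methods give diseased and healthy mice the same range of ages, in weeks, at sorting some weeks after DOX withdrawal. That range does not reach 6 months. The sources used here do not say whether animals were pooled or whether the LT replicates came from separate animals, so the p-values measure only the spread between these libraries, which may be technical. LT-HSC 1 and 2 also differ in age, and age and library cannot be told apart.

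Basophils and mast cells arise from bone marrow progenitors and store histamine, proteases and proteoglycan in granules. Both carry the high-affinity IgE receptor, an alpha chain that binds IgE, a beta chain and a dimer of gamma chains, and cross-linking of bound IgE releases the granules. Progenitors are called primed when they transcribe genes of a fate before they take it on.

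Depth, estimated from the steps between low RPKM values, was 17.8 to 23.9 M reads a library, and read numbers below are estimates on that scale. The summed RPKM of 5 HSC marker genes was 156 to 279 in the 6 stem cell libraries and 12.0 to 16.9 in the KLS- libraries. In sorted bulk cells, fewer cells of a type and less RNA per cell cannot be told apart.

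Cpa3 and Ms4a2 were among the members with the clearest difference between KLS- progenitors and LT cells, and Fcer1a had the clearest difference between CML and normal stem cells. The 250 bases upstream of these 3 genes are shown for the GATA words they hold, beside those of Gzmb, which hold none. GATA factors are transcription factors used in the basophil and mast cell lineages. The sequences are from RefSeq (GRCm38.p6), each matched to a single place in mm9, where all 4 genes lie on the minus strand, and are written 5′ to 3′ on the gene's strand. They cover chr3:20142081-20142330 for Cpa3, chr19:11698210-11698459 for Ms4a2, chr1:175157361-175157610 for Fcer1a and chr14:56881172-56881421 for Gzmb. Capitals mark a GATA word or an E-box word, each searched on both strands. The GATA words searched were AGATAA, with its variant form AGATAG, the similar word TGATAA and its own variant form TGATAG. The E-box words searched were CACGTG, which reads alike on both strands, and the related word CATGTG, which does not.
Cpa3: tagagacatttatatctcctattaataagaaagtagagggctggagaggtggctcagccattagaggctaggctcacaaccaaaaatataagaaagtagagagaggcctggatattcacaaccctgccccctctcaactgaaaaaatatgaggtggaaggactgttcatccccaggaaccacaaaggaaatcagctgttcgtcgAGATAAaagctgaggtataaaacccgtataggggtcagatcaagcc
Ms4a2: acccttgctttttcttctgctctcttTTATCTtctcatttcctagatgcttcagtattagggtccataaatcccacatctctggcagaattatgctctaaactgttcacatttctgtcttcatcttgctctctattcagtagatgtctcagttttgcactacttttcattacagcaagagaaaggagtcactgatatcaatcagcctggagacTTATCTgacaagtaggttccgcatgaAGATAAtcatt
Fcer1a: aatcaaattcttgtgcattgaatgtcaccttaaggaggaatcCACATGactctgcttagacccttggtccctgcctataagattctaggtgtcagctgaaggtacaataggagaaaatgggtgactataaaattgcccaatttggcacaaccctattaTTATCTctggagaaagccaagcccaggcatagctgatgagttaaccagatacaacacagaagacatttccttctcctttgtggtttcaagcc
Gzmb: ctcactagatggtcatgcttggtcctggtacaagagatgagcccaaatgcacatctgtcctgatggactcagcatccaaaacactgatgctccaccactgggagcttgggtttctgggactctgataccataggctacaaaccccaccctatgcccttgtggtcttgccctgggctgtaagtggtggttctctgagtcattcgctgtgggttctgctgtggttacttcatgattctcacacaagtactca

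The Cpa3 window held 1 GATA word, which began 46 bases upstream of the RefSeq start. Ms4a2 held 3, which began 224, 37 and 11 bases upstream. Fcer1a held 1 GATA word 92 bases upstream and an E-box word 208 bases upstream, and it was the only member with the latter. In all, 5 of the 8 members had a GATA word in at least 1 window, also counting Hdc and Mitf, which has 3 windows. Mcpt8, Fcer1g and Gzmb had none. Of 32536 RefSeq windows of the same length, 26.5% held a GATA word and 17.7% an E-box word. These shares are per window, while the members were counted per gene over 10 windows. Such matches describe the letters and not binding.

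To see where the genes stood in the hierarchy, KLS- progenitors were compared with LT cells, with disease as a term (limma on log2(RPKM + 1), Benjamini-Hochberg adjustment). Of the 8 genes, 6 were higher in KLS- progenitors (20.8% of all tested genes were), and Mitf was lower (25.5% of all tested genes were). Fcer1a did not pass. The median difference of the 8 genes was 2.46 on the log2 scale, against -0.07 over all tested genes.

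**Figure D1:**
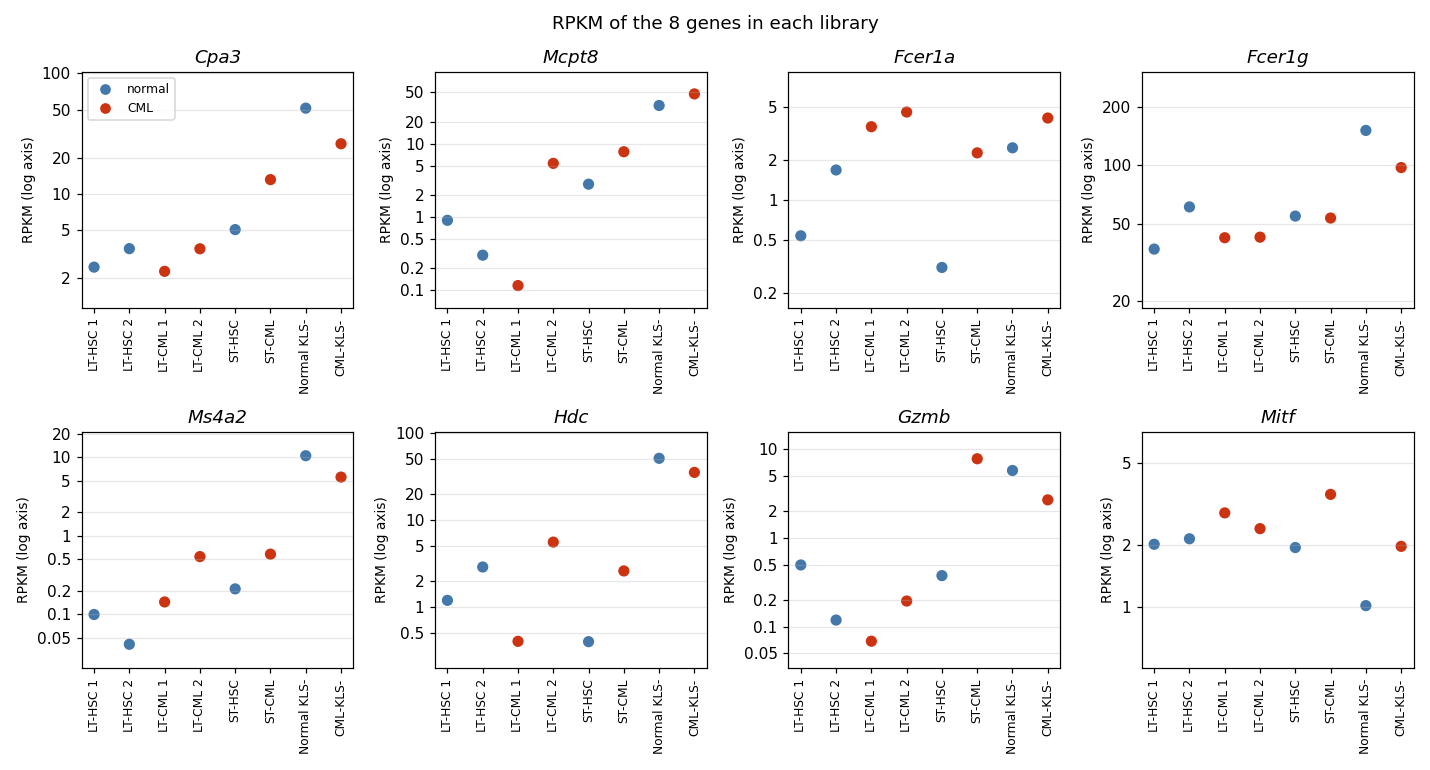
RPKM of each of the 8 genes (log axis, 1 panel a gene) in each of the 8 libraries, blue for normal and red for CML, 1 point a library. Both KLS- libraries lie above all 6 stem cell libraries for Cpa3, Mcpt8, Fcer1g, Ms4a2 and Hdc, while the CML stem cell libraries lie above the normal ones for Fcer1a and Mitf.

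Coordinates of the genes are those of GENCODE M1 on mm9, and all but Mitf lie on the minus strand. Cpa3, at chr3:20115516-20142080, encodes mast cell carboxypeptidase A, a granule protease. Its level was 2.47 RPKM in LT-HSC 1, 3.51 in LT-HSC 2, 2.28 in LT-CML 1 and 3.50 in LT-CML 2. It was 5.06 RPKM in ST-HSC, 13.1 in ST-CML, 51.4 in normal KLS- and 26.0 in CML-KLS-. The 4 LT libraries were alike, and the KLS- libraries were the highest. The difference between KLS- and LT was 3.27 (SE 0.36, adjusted p = 0.000242, limma).

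Mcpt8, at chr14:56701003-56704053, encodes mast cell protease 8, a protease of mouse basophils. Its level was 0.896 RPKM in LT-HSC 1, 0.299 in LT-HSC 2, 0.115 in LT-CML 1 and 5.37 in LT-CML 2. It was 2.79 RPKM in ST-HSC, 7.74 in ST-CML, 33.1 in normal KLS- and 47.7 in CML-KLS-. LT-CML 1 and LT-CML 2, which were replicates, stood far apart, with about 2 and 84 reads. The KLS- libraries lay above all others, and the difference from LT was 4.32 (SE 0.55, adjusted p = 0.000502, limma). Mcpt8 lies in a cluster of related protease genes on chromosome 14, and how reads matching several of them were counted is not given in the sources used here.

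Gzmb, at chr14:56877693-56881097 in the same cluster, encodes granzyme B, a granule serine protease known from cytotoxic lymphocytes and also made by mast cells and basophils. Its level was 0.496 RPKM in LT-HSC 1, 0.118 in LT-HSC 2, 0.0682 in LT-CML 1 and 0.194 in LT-CML 2, or 2 to 14 reads. It was 0.376 RPKM in ST-HSC, 7.84 in ST-CML, 5.79 in normal KLS- and 2.69 in CML-KLS-. ST-CML, with about 207 reads, was the highest of the 8 libraries, above both KLS- libraries. The difference between KLS- and LT was 2.05 (SE 0.58, adjusted p = 0.0193, limma), and the call was lost without normal KLS- (1.23, adjusted p = 0.236), without LT-CML 1 (1.91, adjusted p = 0.0507) or without a filter on low values (adjusted p = 0.0615). Over 15 alternatives the adjusted p of Gzmb ran from 0.000251 to 0.236, and 12 kept the call. Of the cytotoxic lymphocyte markers, Gzma was at most 0.477 RPKM and Prf1 at most 0.321 in any library. Nkg7 was 680 and 692 RPKM in the KLS- libraries and 85.7 to 290 in the stem cell libraries, and its part in the Gzmb values was not tested.

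Hdc, at chr2:126419403-126445035, encodes histidine decarboxylase, the enzyme that makes histamine. Its level was 1.20 RPKM in LT-HSC 1, 2.91 in LT-HSC 2, 0.406 in LT-CML 1 and 5.61 in LT-CML 2. It was 0.403 RPKM in ST-HSC, 2.62 in ST-CML, 51.5 in normal KLS- and 35.5 in CML-KLS-. The stem cell libraries were spread widely, with the 2 LT-CML replicates 13.8-fold apart, but all lay below both KLS- libraries. The difference was 3.87 (SE 0.58, adjusted p = 0.00106, limma).

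The 3 chains of the IgE receptor did not share a pattern. Fcer1a, at chr1:175151402-175157360, encodes the alpha chain. Its level was 0.538 RPKM in LT-HSC 1, 1.68 in LT-HSC 2, 0.311 in ST-HSC and 2.46 in normal KLS-. It was 3.53 RPKM in LT-CML 1, 4.56 in LT-CML 2, 2.25 in ST-CML and 4.11 in CML-KLS-, with about 6 to 85 reads over all 8 libraries. The CML stem cell libraries were as high as the KLS- libraries or nearly so, and KLS- minus LT was 0.40 (SE 0.25, adjusted p = 0.217, limma).

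Ms4a2, at chr19:11690013-11698209, encodes the beta chain. Its level was 0.0993 RPKM in LT-HSC 1, 0.0415 in LT-HSC 2, 0.144 in LT-CML 1 and 0.544 in LT-CML 2, or 1 to 10 reads. It was 0.211 RPKM in ST-HSC, 0.584 in ST-CML, 10.5 in normal KLS- and 5.61 in CML-KLS-. The KLS- libraries, with about 215 and 101 reads, stood well above all 6 stem cell libraries. The difference was 2.87 (SE 0.25, adjusted p = 7.45e-05, limma), the smallest adjusted p of the 8 genes.

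Fcer1g, at chr1:173159703-173164496, encodes the gamma chain, which other Fc receptors of myeloid cells also use. Its level was 37.03 RPKM in LT-HSC 1, 61.0 in LT-HSC 2, 42.4 in LT-CML 1 and 42.7 in LT-CML 2. It was 54.7 RPKM in ST-HSC, 53.5 in ST-CML, 151 in normal KLS- and 97.3 in CML-KLS-. It was the highest of the 8 genes in every library, and the difference between KLS- and LT was 1.41 (SE 0.20, adjusted p = 0.00091, limma). Per length, Fcer1g stood 36.4-fold to 176-fold above Fcer1a in the 4 normal libraries and 9.36-fold to 23.8-fold above it in the 4 CML libraries.

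Mitf, at chr6:97757052-97971352 on the plus strand, encodes a transcription factor of mast cells and melanocytes. The antisense gene Gm15531 overlaps it, and whether counting used strand is not given in the sources used here. Its level was 2.02 RPKM in LT-HSC 1, 2.15 in LT-HSC 2, 2.87 in LT-CML 1 and 2.40 in LT-CML 2. It was 1.95 RPKM in ST-HSC, 3.52 in ST-CML, 1.02 in normal KLS- and 1.97 in CML-KLS-. The levels lay close together, with normal KLS- the lowest and ST-CML the highest. KLS- minus LT was -0.45 (SE 0.15, adjusted p = 0.0341, limma). That call was lost under quantile normalization (-0.14, adjusted p = 0.452), without a filter (adjusted p = 0.0758) and without the disease term (adjusted p = 0.15). It was also lost without LT-HSC 1 (adjusted p = 0.0712), LT-HSC 2 (0.0635), normal KLS- (0.254), LT-CML 1 (0.0636) or CML-KLS- (0.0995), and the lowest adjusted p of the 15 alternatives was 0.022.

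Both KLS- libraries lay above all 6 stem cell libraries for 5 genes, Cpa3, Mcpt8, Fcer1g, Ms4a2 and Hdc, and this was so for 21.9% of all tested genes. Markers of other lineages differed between KLS- and LT cells in both directions. All 5 monocyte markers were higher in KLS- progenitors, with a summed RPKM of 333 and 369 against 2.90 to 23.9 in stem cells, and all 6 megakaryocyte markers were lower (median -2.43). Of 8 neutrophil markers, the early granule genes Mpo (7.28), Ctsg (6.05) and Prtn3 (3.12) were higher and Ltf (-3.03) was lower, while Ngp, Camp, S100a9 and S100a8 did not pass (-3.44 to -0.84). The part of these lineages in the values of the 5 genes was not tested.

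**Figure D2:**
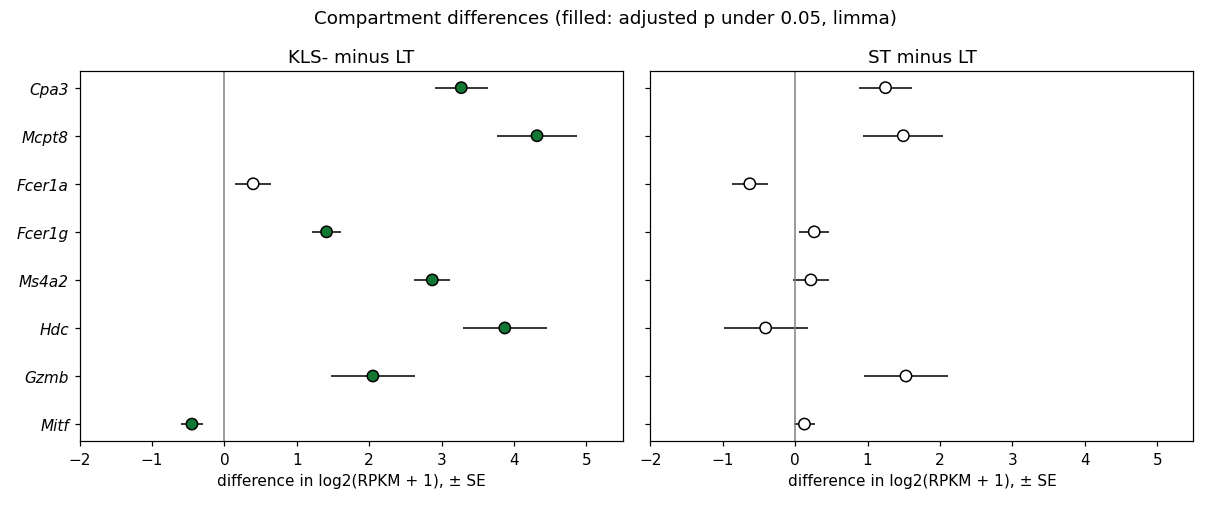
Difference in log2(RPKM + 1) between KLS- and LT cells (left) and between ST and LT cells (right) for each gene, with its SE from limma (8 libraries, disease as a term), filled where the adjusted p was under 0.05. On the left 6 genes are filled above 0 and Mitf below it, and on the right no gene is filled.

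Between ST and LT cells, none of the 8 genes passed (limma; 4 had an unadjusted p under 0.05). Of all tested genes, 4.87% passed and 19.6% had an unadjusted p under 0.05. Cpa3 differed by 1.25 (SE 0.36, adjusted p = 0.0969), Mcpt8 by 1.49 (SE 0.55, adjusted p = 0.178), Gzmb by 1.53 (SE 0.58, adjusted p = 0.19) and Fcer1a by -0.63 (SE 0.25, adjusted p = 0.211). Without ST-HSC, Cpa3 (2.03, adjusted p = 0.0435) and Gzmb (3.08, adjusted p = 0.00784) passed. Without LT-CML 2, Mcpt8 did (1.99, adjusted p = 0.0318). Without ST-CML, the Gzmb difference was -0.024. Over 15 alternatives the adjusted p ran from 0.0435 to 0.649 for Cpa3, from 0.00784 to 0.979 for Gzmb and from 0.0318 to 0.595 for Mcpt8.

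The second comparison asked whether CML stem cells (LT-CML 1, LT-CML 2 and ST-CML) differed from normal HSCs (LT-HSC 1, LT-HSC 2 and ST-HSC). None of the 8 genes passed (limma; 3 had an unadjusted p under 0.05). Of all tested genes, 2.34% passed and 12.5% had an unadjusted p under 0.05. The 3 were Fcer1a (1.31, SE 0.30, adjusted p = 0.0879), Ms4a2 (0.34, SE 0.14, adjusted p = 0.398) and Mitf (0.36, SE 0.15, adjusted p = 0.39). The difference was above 0 in 7 of the 8 genes, with a median of 0.44 against -0.04 over all tested genes.

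Fcer1a and Mitf were higher in all 3 CML stem cell libraries than in all 3 normal ones, as were 6.92% of all tested genes. With 3 against 3 libraries, a 2-sided exact permutation test cannot give a p below 0.1. Fcer1a was 3.66-fold higher in the mean of the LT-CML libraries than in that of the LT-HSC libraries, and 7.23-fold higher in ST-CML than in ST-HSC. With LT or ST as a covariate it passed (1.31, adjusted p = 0.0122), as it did without LT-HSC 2 (1.61, adjusted p = 0.0407). Those 2 fits called 543 and 191 of all tested genes, beside 294 in the main fit. LT-HSC 2, labelled 6 months, held the most Fcer1a RNA of the 3 normal HSC libraries. In all other alternatives Fcer1a did not pass. Over 14 alternatives its adjusted p ran from 0.0122 to 0.271.

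For Cpa3 and Gzmb the difference rested on ST-CML. Over the 6 stem cell libraries it was 0.38 (SE 0.51, adjusted p = 0.826) for Cpa3 and 0.76 (SE 0.73, adjusted p = 0.748) for Gzmb, and without ST-CML it was -0.25 and -0.23. For Mcpt8 it was 0.91 (SE 0.75, adjusted p = 0.702) and for Hdc 0.49 (SE 0.58, adjusted p = 0.797). Fcer1g differed by -0.12 (SE 0.21, adjusted p = 0.872), within the spread of the libraries.

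Between LT-CML and LT-HSC, none of the 8 genes passed either (limma, 6 populations; 1 had an unadjusted p under 0.05). Of all tested genes, 1.73% passed and 11.6% had an unadjusted p under 0.05. The member was Fcer1a (1.31, SE 0.28, adjusted p = 0.0812). Both LT-CML libraries lay above both LT-HSC libraries for Fcer1a, Ms4a2 and Mitf, as they did for 17.5% of all tested genes. For Ms4a2 this rests on about 3 and 10 reads in LT-CML 1 and 2 against 2 and 1 in LT-HSC 1 and 2. The LT differences of Mcpt8 (0.76, SE 0.70, adjusted p = 0.77) and Hdc (0.06, SE 0.65, adjusted p = 0.989) turned to -0.49 and -1.06 without LT-CML 2. LT-CML 2 also held more RNA of neutrophil granule genes than LT-CML 1, with 1291 against 5.20 RPKM of Mpo and 123 against 0.434 of Ctsg. LT-CML 1 held more of the eosinophil granule gene Prg2, 65.2 against 2.23 RPKM. The part of these in the Mcpt8 and Hdc values was not tested.

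**Figure D3:**
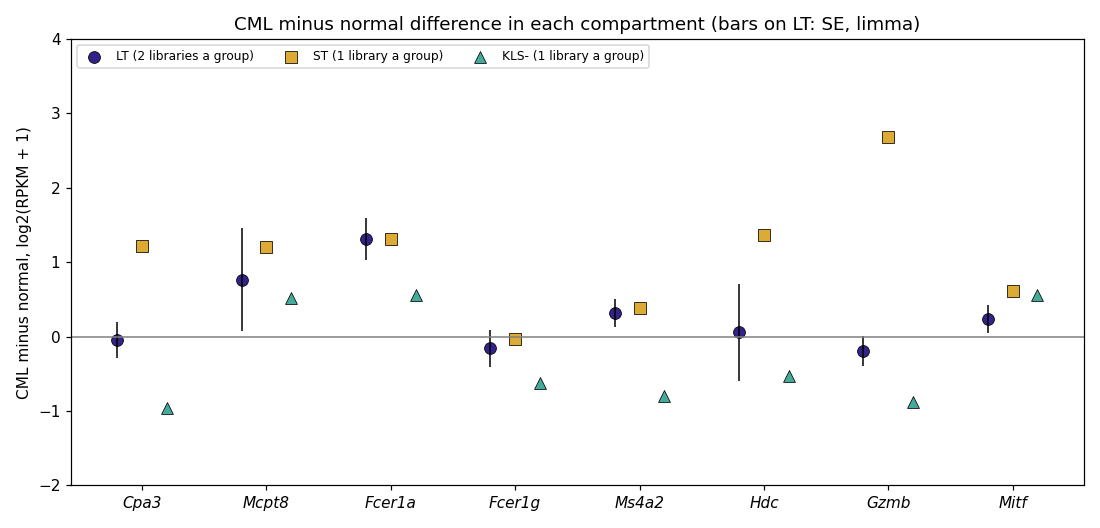
CML minus normal difference in log2(RPKM + 1) for each gene in LT cells (circles, 2 libraries a group, bars are the SE from limma), ST cells (squares) and KLS- progenitors (triangles), with 1 library a group in the latter pair. Cpa3, Ms4a2, Hdc and Gzmb lie above 0 in ST cells and below 0 in KLS- progenitors. The share of all tested genes that did so was not counted.

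Single libraries represent the ST and KLS- populations. ST-CML held at least 2 times the RPKM of ST-HSC for 6 genes, as it did for 7.55% of all tested genes. These were Gzmb (20.9-fold), Fcer1a (7.23-fold), Hdc (6.50-fold), Ms4a2 (2.77-fold), Mcpt8 (2.77-fold) and Cpa3 (2.60-fold). Mitf was 1.81-fold higher, and Fcer1g was 0.977 of its ST-HSC level. The Ms4a2 ratio rests on about 11 reads in ST-CML and 4 in ST-HSC. None of these ratios has a replicate check.

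In KLS- progenitors, 5 genes were lower in CML than in normal cells, as were 52.0% of all tested genes. Gzmb was 2.15-fold higher in normal KLS-, Cpa3 1.97-fold, Ms4a2 1.87-fold, Fcer1g 1.55-fold and Hdc 1.45-fold. Mitf, Fcer1a and Mcpt8 were 1.94-fold, 1.67-fold and 1.44-fold higher in CML-KLS-. None of the 8 genes passed (limma, with the lone libraries assumed to vary like the LT replicates; 3 had an unadjusted p under 0.05). Of all tested genes, 0.43% passed and 7.09% had an unadjusted p under 0.05. The 3 members were Cpa3 (-0.95, SE 0.34, adjusted p = 0.533), Ms4a2 (-0.80, SE 0.27, adjusted p = 0.487) and Gzmb (-0.88, SE 0.28, adjusted p = 0.429).

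The disease difference in KLS- minus that in LT also passed for none of the 8 genes (limma; 1 had an unadjusted p under 0.05). Of all tested genes, 0.0239% passed and 3.76% had an unadjusted p under 0.05. The member was Ms4a2 (-1.11, SE 0.33, adjusted p = 0.862). Its 2 differences share no library.

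Of the 22 listed granule and mediator genes, 14 were higher in ST-CML than in ST-HSC, 4 were lower, among them Srgn and Slc18a2, and 4 were listed at 0 in both. ST-CML was the highest of the 8 libraries for 8 of the 22. These counts compare single libraries, and the shares of all tested genes that were higher or highest were not counted. At least 2 times the ST-HSC level was reached by 7 of the 22, genes at 0 in ST-HSC included, beside 7.55% of all tested genes. Genes of other lists also differed between ST-CML and ST-HSC. All 8 neutrophil markers, 5 of 6 megakaryocyte markers and 6 of 9 eosinophil markers were higher. At least 2 times the ST-HSC level was reached by 7, 2 and 6 of these, respectively. Of 15 listed transcription factor genes, 4 were higher and 11 lower, and of 5 monocyte markers, 2 were higher and 3 lower. The 5 genes named next, Cma1, Tpsb2, Tpsab1, Mcpt4 and Tph1, were chosen after their values were seen. Cma1, which encodes a mast cell chymase, was at 16.9 RPKM in ST-CML, 4.38 in CML-KLS- and 0.918 in normal KLS-, and was listed at 0 in the other 5 libraries. Tpsb2, which encodes a mast cell tryptase, was at 9.12 RPKM in ST-CML, 3.71 in CML-KLS-, 0.101 in LT-CML 2 and 0.0907 in normal KLS-, and at 0 elsewhere. Tpsab1, a neighbouring tryptase gene, was at 3.33 RPKM in ST-CML and 0.848 in CML-KLS-, and at most 0.138 elsewhere. How reads matching both tryptase genes were counted is not given in the sources used here.

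Against a floor of 3 reads in ST-HSC, ST-CML was at least 114-fold higher for Cma1, at least 63.8-fold for Tpsb2 and at least 24.9-fold for Tpsab1. Tph1, which encodes the enzyme that starts serotonin synthesis, was at least 17.9-fold higher, and Mcpt4, another mast cell protease gene, at least 4.03-fold. In CML-KLS- against normal KLS-, Cma1 was 4.78-fold higher and Tpsb2, against the same floor, at least 28.0-fold. Of the 22 listed granule and mediator genes, 11 were higher in CML-KLS-, 7 lower and 4 at 0 in both. Among all tested genes, 52.0% were lower in CML-KLS-. All these values rest on 1 library against 1. Prss34, a basophil protease gene, had another pattern, with 2.34 RPKM in ST-CML and 6.87 in ST-HSC. ST-CML, where Cpa3 and Gzmb were higher than in all other stem cell libraries, was thus also the library with the most RNA of these 5 genes, and their part in the Cpa3 and Gzmb values was not tested.

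**Figure D4:**
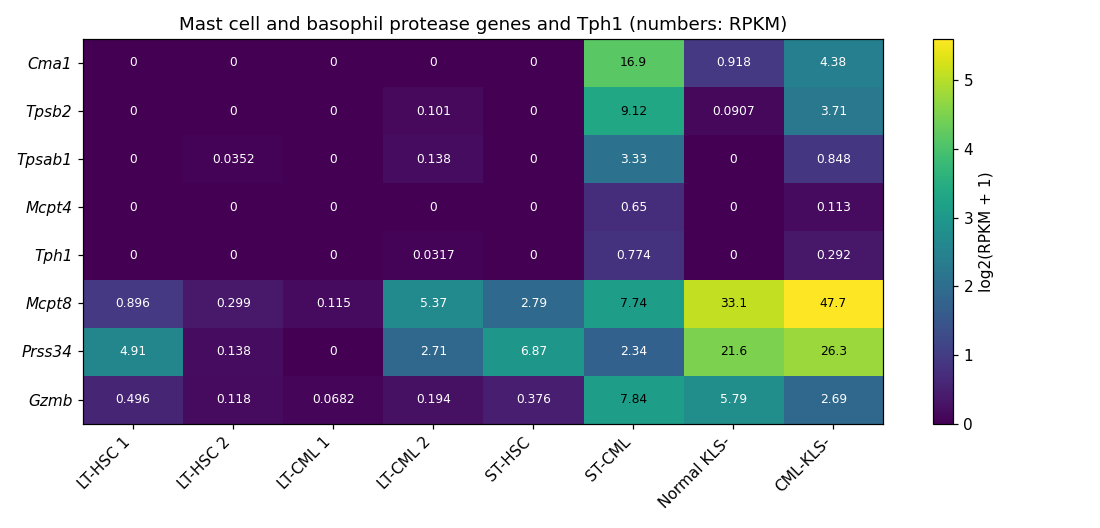
RPKM (printed in each cell, colour on a log2(RPKM + 1) scale) of mast cell and basophil protease genes and Tph1 in the 8 libraries, with 1 column a library. Cma1, Tpsb2, Tpsab1, Mcpt4 and Tph1 are highest in ST-CML, while Mcpt8 and Prss34 are highest in CML-KLS-.

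A set of 4 lists gave the wider setting of the 8 genes in KLS- against LT. Of all tested genes, 20.8% were higher and 25.5% lower there, the shares to set beside the counts below. Of 16 tested granule and mediator genes, 3 were higher and 5 lower (median 0.17). Prss34 (3.47) and Serpinb1a (1.87), a protease inhibitor gene, were higher. Slc18a2 (-1.68), which encodes the vesicular monoamine transporter that loads histamine, and the prostaglandin synthesis gene Hpgds (-1.62) were lower. So Hdc was higher in KLS- progenitors and Slc18a2 lower.

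Of 17 tested genes of signalling below the IgE receptor, 2 were higher and 6 lower (median -0.06). Lat2 (1.81) was higher, and the adaptor genes Lat (-2.60) and Lcp2 (-1.25) and the kinase gene Fyn (-1.78) were lower. Of 15 receptor genes, 5 were higher and 4 lower (median -0.21). Fcgr3 (4.28) and Fcgr2b (2.87), which encode IgG receptors, were higher, as was Csf2rb (1.61), the common beta chain gene, and Itga2b (-2.31) was lower. Fcgr3 protein pairs with the gamma chain encoded by Fcer1g.

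Of 15 tested transcription factor genes, 4 were higher and 7 lower (median -0.64). Cebpa (1.84) was higher, while Hes1 (-2.79), Gata2 (-2.45) and Ikzf2 (-1.19) were lower. Gata2 protein is a GATA factor of basophils and mast cells. Its RNA was at 34.1 to 49.4 RPKM in the 4 LT libraries, 9.28 in normal KLS- and 4.52 in CML-KLS-. Gata1, another GATA factor gene of the list, went the other way (0.83, SE 0.30, adjusted p = 0.046, limma). Its RNA was at 12.95 to 34.9 RPKM in the 4 LT libraries, 38.1 in normal KLS- and 57.2 in CML-KLS-. Between CML stem cells and normal HSCs, 1 of the 63 tested genes of the 4 lists passed (1.59%, beside 2.34% of all tested genes). It was Csf2rb2 (0.96, SE 0.19, adjusted p = 0.0484, limma), which encodes a beta chain of the IL-3 receptor. Between LT-CML and LT-HSC, where 1.73% of all tested genes passed, 1 of 16 granule and mediator genes did, Alox5 (1.23, adjusted p = 0.0329, limma). Of 15 receptor genes, 2 passed, Csf2rb (1.55, adjusted p = 0.0136) and Csf2rb2 (1.12, adjusted p = 0.0434). None of the listed IgE receptor signalling or transcription factor genes did.

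The genes most like each member were ranked by the root mean square difference of centred log2(RPKM + 1) over the 8 libraries, which share the population differences. The nearest to Fcer1a were Alox5 (0.29), Depdc7 (0.34) and Emilin2 (0.37). Alox5 encodes the lipoxygenase that starts leukotriene synthesis. Alox5 was at 4.75 and 3.42 RPKM in the LT-CML libraries and at 1.06 and 1.23 in the LT-HSC libraries, a likeness for which it was chosen. Nearest to Cpa3 were Gm885 (0.45), Abcd2 (0.49) and Ms4a2 (0.50).

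The nearest genes to Ms4a2 were Chdh (0.25), Dtx4 (0.28) and Rab44 (0.32), and the nearest to Mcpt8 were Prssl1 (0.44), Alas1 (0.55) and Plac8 (0.56). Hdc was nearest to Ap3s1 (0.37), Cldn15 (0.41) and Fcgr3 (0.47), and Fcer1g to Slc2a6 (0.15), Ckap4 (0.16) and Kmo (0.17). Gzmb had no near neighbour, its closest genes being Parp8 and Fbxw4 (0.70 each) and Cpa3 (0.72). Mitf, which varied least, was nearest to Ap3m2 (0.07), Pqlc1 (0.08) and BC030307 (0.09).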

How the data were processed

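Total RNA was primed with oligo-dT in the SMARTer Ultra Low Input kit, and libraries were read from both ends. Mapping was to mm9, and what the authors deposited is 1 RPKM value a gene, so no count test was used. The gene annotation and the counting rule are not given in the sources used here. Depth was estimated from the steps between low RPKM values and the exon lengths of GENCODE M1 on the same build, and covers counting error only.

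Tests were made on log2(RPKM + 1), the pseudocount being 1, in limma 3.58.1 under R 4.3.3 (linear fits moderated by eBayes, with an intensity trend). The 12561 genes whose RPKM summed to more than 1 over the libraries were tested, and Benjamini-Hochberg adjusted p-values under 0.05 were called. Compartments were compared with disease as a term, CML stem cells with normal HSCs in 6 libraries, and LT-CML with LT-HSC, CML-KLS- with normal KLS- and their difference in a fit of 6 populations. The smallest p of an exact permutation test was computed from the numbers of libraries. The fits were tested on simulated data. Alternatives covered the pseudocount, the filter, the scaling, the covariates and each library left out.

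The members and gene lists were chosen with earlier results of these data known. All 8 members were named, with the 3 genes most like each member. For KLS- against LT, at most 4 genes of each of the 4 lists were named, those past the threshold with the largest change. Gata1 was named there in addition, beside Gata2. Other genes of the lists and the markers of other lineages were named outside this rule. Among them, Cma1, Tpsb2, Tpsab1, Mcpt4 and Tph1 were chosen after their values were seen. Tfe3, Tfeb, Tfec and Elane, which the lists held, were not analysed here.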

Additional observations from a re-analysis of the deposited data

Results flagged for a closer look

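For 4 of the 8 genes the CML minus normal difference on the log2(RPKM + 1) scale was above 0 in ST cells and below 0 in KLS- progenitors, with 1 library in each group. The ST difference exceeded the KLS- difference by 3.56 for Gzmb, by 2.18 for Cpa3, by 1.89 for Hdc and by 1.19 for Ms4a2. Of all tested genes, 52.0% were lower in CML-KLS- than in normal KLS-, and the share with both signs was not counted. That the ST and KLS- differences were unlike was not tested.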

How the results depend on the processing

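No paired analysis was possible because the labels give the normal libraries ages and no replicate numbers. Cpa3, Mcpt8, Fcer1g, Ms4a2 and Hdc passed in KLS- against LT in every alternative run, and the members called there ranged from 5 to 7. In CML stem cells against normal HSCs 1 member was called with LT or ST as covariate, and 0 to 1 with a library left out. In LT-CML against LT-HSC 1 was called with a mean of at least 1 RPKM required, and in ST against LT 0 to 2 with a library left out.

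The signs that turned are these. Without the ST libraries, an alternative chosen after seeing the data, the CML stem difference was -0.042 for Cpa3 and -0.20 for Gzmb. With a library left out, it ranged from -0.25 to 0.81 for Cpa3, from -0.23 to 1.30 for Gzmb, from -0.024 to 1.09 for Hdc and from -0.33 to 0.027 for Fcer1g. The LT-CML difference of Hdc was -0.22 at a pseudocount of 0.1 and -0.033 at 0.5. With a library left out, the LT-CML differences ranged from -0.27 to 0.19 for Cpa3, from -0.49 to 2.02 for Mcpt8, from -0.51 to 0.19 for Fcer1g, from -1.06 to 1.17 for Hdc and from -0.41 to 0.014 for Gzmb. Those of ST against LT ranged from -0.0070 to 0.44 for Ms4a2, from -1.16 to 0.34 for Hdc, from -0.024 to 3.08 for Gzmb and from -0.011 to 0.26 for Mitf. The KLS- minus LT disease difference ranged from -1.51 to 1.01 for Mcpt8 and from -1.70 to 0.53 for Hdc. The cause was not tested.

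The number of all tested genes called was 294 in CML stem cells against normal HSCs (115 to 543 over alternatives), 217 in LT (0 to 248), 5823 in KLS- against LT (2879 to 6105), 612 in ST against LT (110 to 793), 54 in CML-KLS- against normal KLS- (7 to 82) and 3 in the difference between KLS- and LT (0 to 3). Low genes such as Ms4a2 in stem cells rest on few reads, and ST and KLS- on 1 library a group.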

Other observations

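Of 9 listed eosinophil markers, 7 were higher in CML-KLS- than in normal KLS- and 2 were lower, with 1 library in each group. Among all tested genes, 52.0% were lower in CML-KLS-. Prg2, which encodes the major basic protein, stood at 484 RPKM there and at 60.3 in the normal progenitors. Epx, which encodes eosinophil peroxidase, stood at 83.0 RPKM against 1.60. Ear6, an eosinophil ribonuclease gene, stood at 12.3 RPKM and was listed at 0 in the normal progenitors. Siglec5 stood at 2.00 RPKM against 4.06 and Il5ra, a receptor gene of the lineage, at 0.221 against 0.431. Ccr3, an eosinophil receptor gene, was at most 0.23 RPKM in any library. These values have no replicate check.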
